A study of Mus musculus with 7 samples.

Results

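The comparison described here is the change of the response between 3 h and 10 h, that is, the 10 h response less the 3 h response. The cells were NIH3T3, an immortalised line of mouse embryonic fibroblasts, overexpressing Acid1. All 7 arrays of the series enter it, chosen by the time in their titles. On each array treated fibroblasts were labelled with one dye and non-treated fibroblasts with its partner. At 3 h there were 4 arrays, with the treated cells in Cy5 on replicates 1 and 2 and in Cy3 on replicates 3 and 4. At 10 h there were 3 arrays, with the treated cells in Cy5 on replicates 1 and 2 and in Cy3 on replicate 3. The labels give neither the treatment, the promoter driving Acid1 nor whether the line was 1 clone, and no probe carried the name Acid1. Whether different arrays hold different cultures is not stated either, so a p-value here reflects array-to-array spread that may be technical. Of 20355 probes, 6369 had a value on all 7 arrays and were compared. Those with 1 gene symbol covered 4098 of the 9930 genes named on the array.

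A two-colour array gives a ratio and no level. Each value is a log2 ratio, read as treated over non-treated cells after each array was set to a median of 0 over all its measured values. The labels do not state this direction, and it is likely rather than known. The basis is the repeated extreme value on each array, which was positive where the treated cells were in Cy5 and negative where they were in Cy3. It was left out as not measured. The largest measured value was 7.04 in size and the smallest repeated value 15.978. In the other direction, Cy5 over Cy3 on every array, most differences named below were smaller: of 100 probes followed in both readings, 98 had a difference of smaller size and 37 turned sign. Values in that reading are given beside the main results, and those of all 37 in the closing section. A difference on the Cy5-treated arrays alone keeps its size in both directions.

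Fibroblasts given a growth or stress signal typically pass through an early wave of short-lived regulatory transcripts and then a later phase, in which transcripts for growth, metabolism and matrix change. Ribosomal protein transcripts are long-lived and abundant, and many of them begin with a pyrimidine tract that couples their translation to growth signals. Subunits of the respiratory chain are encoded partly in the nucleus, and their transcripts are often regulated together with those of the mitochondrial ribosome.

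The 2 times differed in precision. The spread of the ratios, as the median absolute deviation over the 6369 probes, was 0.678 to 0.916 on the 3 h arrays and 0.292 to 0.31 on the 10 h arrays. Limma estimated a standard deviation 2.36 times as large at 3 h as at 10 h, and the fit weighted the arrays by it. On the 3 h arrays, 30.5% to 42.5% of these values equalled, within 0.0016, the log2 of one whole number over another with neither above 8, once the array's own constant was taken off. At 10 h the share was 5.13% to 6.08%. Pairs of 3 h arrays correlated across probes at a Pearson r of 0.006 to 0.259, the dye-matched pair at 10 h at 0.107, and the dye-swapped pairs at 10 h at -0.05 and -0.138. Probes are not independent replicates, so these are descriptions of the arrays. The arrays measured 13262 to 15157 spots at 3 h and 16395 to 17766 at 10 h. What part these features have in the differences below was not tested.

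No probe passed an adjusted p of 0.05 in limma's test of the difference (0% called), and the smallest adjusted p was 0.0679. At an unadjusted p under 0.05, 594 probes were higher at 10 h (9.33%) and 91 lower (1.43%). The median difference over all probes was 0.17 on the log2 scale, and 4013 probes (63%) were higher at 10 h. The centring used all measured values of an array, so the compared probes kept an offset. Their medians were -0.12, -0.17, -0.38 and 0.08 on 3 h replicates 1 to 4 and 0.06, 0.06 and -0.05 on 10 h replicates 1 to 3. What part this offset has in the counts was not tested. On 601 probes (9.44%) all 3 arrays at 10 h lay above all 4 at 3 h, and on 155 (2.43%) they lay below. Over gene means these shares were 8.17% of genes, or 335, above and 2.54%, or 104, below. Values were rounded to 2 decimals for this count, which can turn a near tie into overlap. Unrounded, the shares were 8.32% and 2.61%. For single genes, an unadjusted p under 0.05 was reached by 8.54% higher and 1.37% lower. The excess of higher probes depended on the direction of the ratios and on the scaling. Read as Cy5 over Cy3, 137 probes were higher and 112 lower at an unadjusted p under 0.05, and the shares that did not overlap were 3.77% above and 2.83% below. Among probes whose times did not overlap, 79.5% were higher after median centring, and 54.9% (480 against 395) after quantile normalization, which moved the median difference to -0.02. Single arrays also mattered, although fewer arrays overlap less by construction. Leaving out 1 array gave 11.5% to 18% of probes above, the highest without 3 h replicate 4. It gave 3.63% to 8.35% below, the highest without 3 h replicate 3, and each array except 10 h replicate 2 moved that share by over 1.5 times.

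The sign of the response itself turned for some probes. On 183 probes (2.87%) all 3 h arrays were below 0 and all 10 h arrays above 0, and 111 of these probes had a gene symbol. The reverse held on 41 probes (0.644%), 31 of them with a symbol. These counts describe the arrays and have no test of their own. The 0 is each array's median over all its measured values, so the offset of the compared probes enters them too. With the ratios read as Cy5 over Cy3 the shares were 0.911% and 0.487%. Without 10 h replicate 3 and without 3 h replicate 4 the first share was 5.07% and 6.58%, and leaving out single arrays gave 1.04% to 2.18% for the second.

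**Figure D1:**
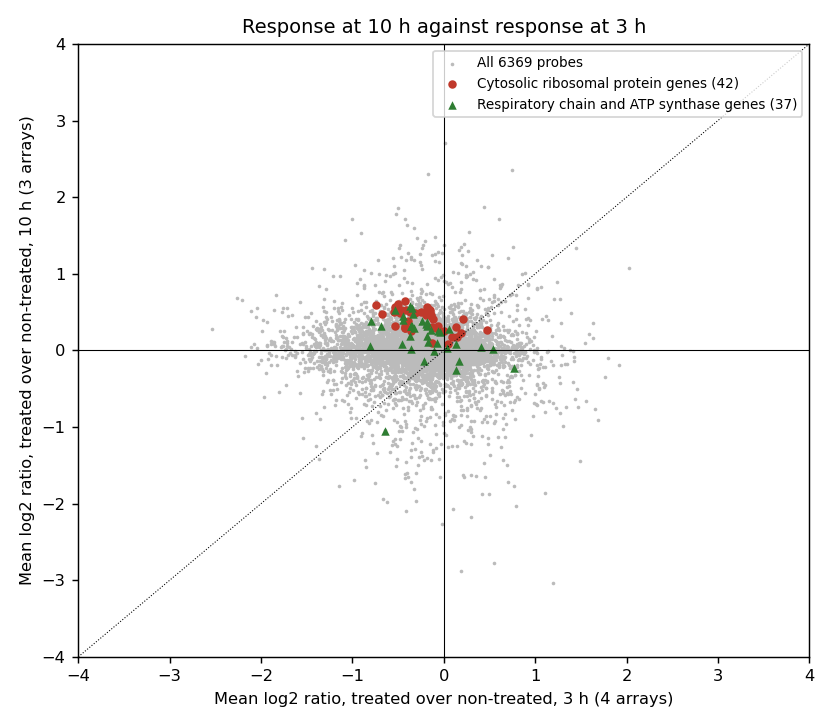
Mean log2 ratio (treated over non-treated) at 3 h (4 arrays, horizontal axis) and at 10 h (3 arrays, vertical axis) for 6369 probes in grey, with 42 cytosolic ribosomal protein genes in red and 37 respiratory chain and ATP synthase genes in green as means over their probes. The grey cloud is wider along the 3 h axis, and most coloured points lie above the dotted line of equal response, towards the upper left.

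A restriction to probes away from the small ratios gave some calls. Of the 6369 probes, 1833 lay off the small whole-number ratios on all 7 arrays. In a limma fit of those probes alone, 21 passed (1.15%), and all 21 were higher at 10 h, with differences of 1.48 to 2.94 and adjusted p from 0.00263 to 0.0456. Their mean ratios were -2.54 to -1.13 at 3 h and 0.04 to 0.68 at 10 h, so they were well below 0 at the early time and near or above 0 at the late one. A gene symbol was available for 6 of them: Znrf1, Snx18, Dbp, Asic2, Sparcl1 and Apaf1. The number was 1 without 3 h replicate 1, 5 without 3 h replicate 2, and 20 to 24 without any other array, with 2 lower probes beside the 20 higher ones without 3 h replicate 3. It was 0 with the ratios read as Cy5 over Cy3, with a smallest adjusted p of 0.78. A fit over all 6369 probes with a separate spread for each probe and time called 7 probes (0.11%), all of them among these 21 and none with a gene symbol.

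Some of these calls lay close together in the array's probe numbers. Among all stretches of 13 compared probes in number order, the one from 18468 to 18503 held the most with all 10 h arrays above all 3 h arrays, 8 of 13, and 5 of the 21 calls lay in it. The stretch was found by its values, so its count has no test. Brwd1, Trak2 and Dbp are the 3 genes with a symbol among those 8. The next stretch apart from it, 16386 to 16409, held 7 of 13 and 0 of the 21 calls. Over the whole array, a probe of this kind was followed by a second one in 34 of 274 cases (12.4%), against 9.44% of all compared probes. The labels give no layout of the array.

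The genes with the smallest p that were higher at 10 h shared a shape: clearly below 0 on every 3 h array, and close to or above 0 on every 10 h array. The 3 examples below come from protein turnover, membrane traffic and the circadian output. None passed over all 6369 probes. The genes were picked by this difference, so the shape is not a separate result.

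Znrf1 encodes a membrane-associated RING-type ubiquitin ligase. Its log2 ratios were -1.63, -1.32, -2.05 and -1.1 on 3 h replicates 1 to 4 and 0.34, 0.56 and 0.42 on 10 h replicates 1 to 3. The groups were 1.44 apart at their nearest points, and the difference was 1.97 with a standard error of 0.27 (adjusted p = 0.114 in limma). A second Znrf1 probe differed by -0.075 and so did not share the pattern. In the Cy5 over Cy3 reading the first probe differed by 0.11.

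Snx18, a sorting nexin that shapes endosomal membranes, had -1.01, -1.21, -1.36 and -1.02 at 3 h and 0.44, 0.41 and 0.35 at 10 h. Both groups were tight, with standard deviations of 0.17 (n = 4) and 0.05 (n = 3). The difference was 1.55 ± 0.23 (SE, adjusted p = 0.123 in limma). The other Snx18 probe was lower at 10 h by -0.48, so the gene's probes disagree. In the other reading the first probe differed by 0.13.

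Dbp, a transcription factor of the PAR bZIP family whose transcript cycles with the circadian clock, had -2.09, -1.98, -2.28 and -0.68 at 3 h. At 10 h it had 0.43, 0.47 and 0.75. Only 3 h replicate 4 came near the later values, and the times stayed 1.11 apart. The difference was 2.31 ± 0.36 (SE, adjusted p = 0.123 in limma). It was 2.48 on the Cy5-treated arrays and 2.23 on the Cy3-treated ones. Read as Cy5 over Cy3 it was 0.33.

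Matrix and membrane genes came next. Gpc4, a glypican that carries heparan sulfate at the cell surface, had -2.08, -2.03, -1.58 and -1.74 at 3 h and 0.04, 0.44 and -0.13 at 10 h. Sparcl1, a secreted relative of the collagen-binding protein Sparc, had -1.63, -1.79, -2.05 and -1.29 at 3 h and 0.06, 0.23 and -0.16 at 10 h. Asic2, a subunit of a proton-gated sodium channel, had -1.8, -2.11, -1.74 and -0.92 at 3 h and 0.11, 0.12 and 0.28 at 10 h. For all 3 genes the later values lay around 0, so the difference came from low early ratios. The differences were 1.97 ± 0.31 for Gpc4, 1.74 ± 0.28 for Sparcl1 and 1.81 ± 0.29 for Asic2 (SE), with adjusted p in limma of 0.123, 0.135 and 0.135. The other reading gave 0.40, 0.17 and 0.29.

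The other 6 genes named by p in this direction were Wdr66, Cchcr1, C2cd3, Trak2, Brwd1 and Ttn, with adjusted p of 0.142 to 0.238 in limma. C2cd3, a centriole protein needed for cilia, differed by 1.77 ± 0.31 (SE) but stayed near 0 at 10 h (mean -0.075 ± 0.191, SD, n = 3). Trak2, an adaptor that links mitochondria to motor proteins, went from a mean of -1.77 ± 0.84 (SD, n = 4) to 0.50 ± 0.27 (SD, n = 3). Cchcr1 had the highest 10 h mean of the 12, with values of 0.71, 0.97 and 0.78 on 1 probe. Its second probe differed by 0.39. Brwd1, a bromodomain protein of chromatin, was higher at 10 h on all 3 of its probes, by 1.95, 1.35 and 0.33. Ttn, which encodes the giant sarcomere protein titin, differed by 1.22 ± 0.24 (SE) on 1 probe, and the spread within each time was at most 0.25 (SD). Its second probe differed by 0.39. In the Cy5 over Cy3 reading the probes of Brwd1, Cchcr1 and C2cd3 named by p turned to the other sign, at -0.40, -0.01 and -0.07. The gene mean of Cchcr1 stayed positive there, at 0.37.

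Genes that were lower at 10 h showed the mirror image: for most, above 0 at 3 h and near or below 0 at 10 h. Their differences were smaller in size than those of the higher genes, except for a few with wide spread, and their adjusted p in limma was 0.294 to 0.36.

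Srm encodes spermidine synthase, which makes a polyamine needed for growth. It had 1.45, 1.11, 0.3 and 0.86 at 3 h and -0.43, -0.22 and -0.32 at 10 h. The groups did not overlap, and the difference was -1.26 ± 0.29 (SE, adjusted p = 0.294). Srm kept its sign in the other reading of the ratios, at -0.46.

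Dlk1, a membrane protein of the Notch ligand family that holds back adipocyte differentiation, had 2 compared probes. The first had 0.6, 0.78, 1.11 and 1.04 at 3 h and 0.12, -0.07 and -0.11 at 10 h. The second had 0.94, 0.74, 0.54 and 1.72 at 3 h and 0.08, 0.05 and -0.18 at 10 h. Both probes had all late values below all early ones, and the differences were -0.9 ± 0.25 and -1 ± 0.3 (SE, adjusted p = 0.325 and 0.36). They turned to 0.25 and 0.24 when read as Cy5 over Cy3.

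Pfn1 and Tubb6 are parts of the cytoskeleton. Pfn1, or profilin, which supplies actin monomers to growing filaments, had 0.6, 0.41, 0.54 and 1.07 at 3 h and -0.18, -0.13 and -0.3 at 10 h. Tubb6, a beta tubulin, had 0.37, 0.64, 0.33 and 0.93 at 3 h and -0.23, -0.22 and -0.3 at 10 h. Every early value was above 0 and every late value below it. The differences were -0.86 ± 0.25 and -0.82 ± 0.24 (SE, adjusted p = 0.357 and 0.36). Both genes had differences of 0.14 and 0.01 in the other reading, with the opposite sign.

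The rest of the lower group was mixed in function. Ankrd26 (-0.95 ± 0.23), Nudt4 (-1.09 ± 0.27), Il7r (-0.88 ± 0.23) and Pemt (-0.98 ± 0.27) had standard errors under 0.3. Nudt4 hydrolyses diphosphoinositol phosphates, Il7r is the receptor chain for interleukin 7, and Pemt methylates phosphatidylethanolamine to phosphatidylcholine. Fam83g differed by -0.92 ± 0.26 (SE). Prorsd1 (-2.08 ± 0.57), Chn2 (-2.6 ± 0.74) and Wdr60 (-1.92 ± 0.59) had larger differences and larger errors. Chn2 is a Rac-directed GTPase activator and Wdr60 an intermediate chain of the ciliary dynein. Prorsd1 touched between the times, with a 3 h value and a 10 h value both at -0.42 to 2 decimals. Smim7 was lower by -1.42 ± 0.38 on 1 probe, but its other probes differed by -0.16 and 1.05. P2ry2, a receptor for extracellular nucleotides, was above 0 on all 3 h arrays and below 0 on all 10 h arrays, with a difference of -1.33 ± 0.42 (SE). In the Cy5 over Cy3 reading Il7r, Pemt, Fam83g, Chn2, Smim7 and P2ry2 turned to 0.07, 0.09, 0.13, 0.32, 0.46 and 0.56, and Ankrd26 was at -0.03.

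**Figure D2:**
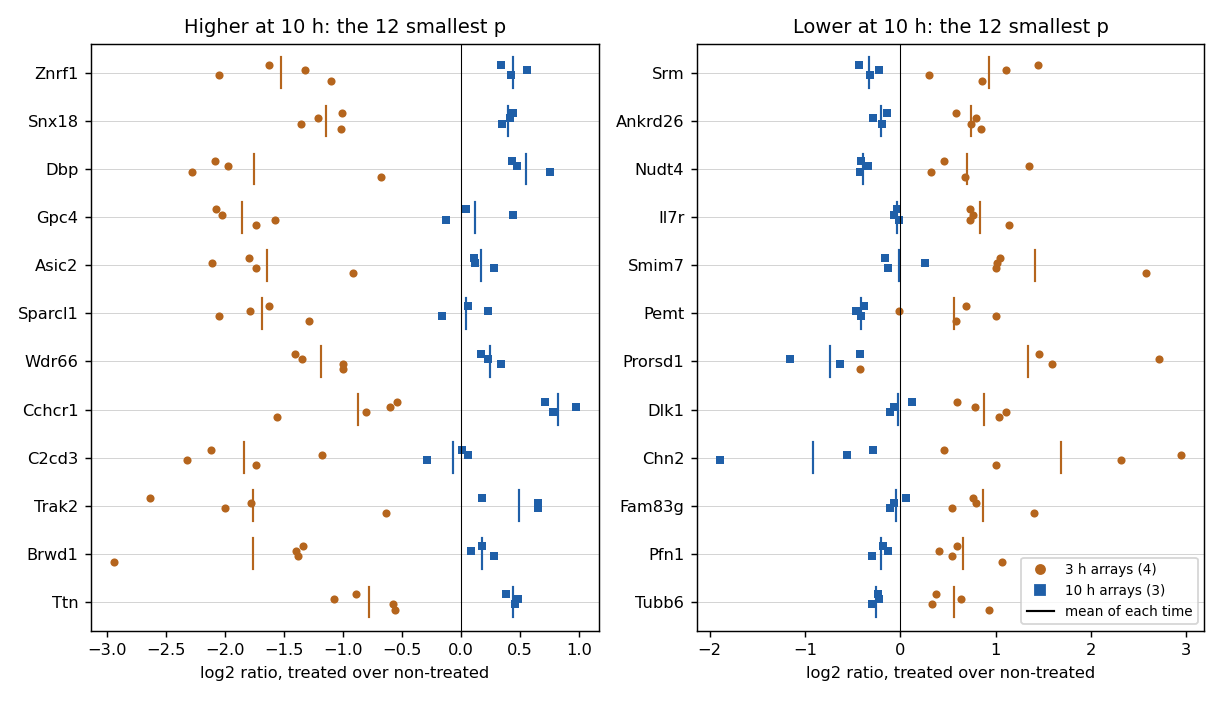
Log2 ratio (treated over non-treated) on each array for the 12 genes with the smallest p in each direction; circles are the 4 arrays at 3 h, squares the 3 arrays at 10 h, and short vertical lines the mean of each time. For most genes the squares lie close together near 0 and the circles apart from them, on the left (higher at 10 h) or on the right (lower at 10 h). Prorsd1 is one whose times touch, at -0.42.

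Genes measured by several probes were compared within the array. Of 562 genes with at least 2 compared probes, 323 had all probes of 1 sign. In 4 genes every probe had all 10 h values above all 3 h values, and in 2 genes every probe had them below. Over all compared probes 63% were higher, 9.44% did not overlap on the higher side and 2.43% on the lower side. Whether the probes of a gene agreed more often than these shares give was not tested. The 4 higher genes were Rps21, with 3 probes, and Atp5j2, Atp5mpl and Ccdc88c, with 2 each. The 2 lower genes were Dlk1 and Dap. Dap, a small protein linked to autophagy and cell death, differed by only -0.61 ± 0.26 and -0.63 ± 0.3 (SE), with adjusted p of 0.464 and 0.502 in limma, and turned to 0.23 and 0.26 in the Cy5 over Cy3 reading. Of the 4 higher genes, Rps21 is a ribosomal protein, and Atp5j2 and Atp5mpl belong to the mitochondrial ATP synthase. Ccdc88c, a regulator of Wnt signalling, differed by 1.27 ± 0.34 and 0.62 ± 0.28 (SE).

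Cytosolic ribosomal protein genes had the highest median difference of the 25 lists with at least 15 compared genes. Of 82 genes on the list, 60 were on the array and 42 had values on all 7 arrays. Of these 42, 41 had a higher mean at 10 h, against 62% of all genes. In 19 of the 42 (45.2%, against 8.17% of all genes) all 10 h values lay above all 3 h values, and in 0 they lay below. No member passed the adjusted p, and 20 higher ones reached an unadjusted p under 0.05, against 8.54% of all genes. The median log2 ratio of the list was -0.18 at 3 h and 0.43 at 10 h, and the median difference lay 0.52 above that of all genes.

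On single arrays, the list's median less the median of all genes was -0.25, -0.19, -0.16 and 0.18 on 3 h replicates 1 to 4. On the 10 h arrays it was 0.36, 0.4 and 0.45. All 3 values at 10 h exceeded all 4 at 3 h, and 3 h replicate 4 stood apart on the high side. Both subunits of the ribosome took part. In the large subunit 24 of 24 genes were higher at 10 h and 12 (50%) did not overlap. In the small subunit 17 of 18 were higher and 7 (38.9%) did not overlap, against 62% and 8.17% of all genes. The exception was Fau, whose product carries a ribosomal protein fused to a ubiquitin-like domain, with a difference of -0.22 ± 0.38 (SE).

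The size of the difference rested on the direction of the ratios. Within the Cy5-treated arrays the list lay 0.64 above all genes, and within the Cy3-treated arrays 0.33. Read as Cy5 over Cy3 it lay 0.27 above, with 35 of 42 genes higher, against 2184 of all 4098. In that reading 1 of 42 (2.38%) did not overlap on the higher side, which is below the 4.03% of all genes. Leaving out 1 array at a time gave 19 to 28 non-overlapping genes of 42. The highest count came without 3 h replicate 4, where 16.9% of all genes did not overlap in this direction, and over the arrays left out that share of all genes was 10.1% to 16.9%.

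Among the named members, Rps29 was the most even. It had -0.76, -0.45, -0.53 and -0.42 at 3 h and 0.45, 0.75 and 0.49 at 10 h. Its times were 0.87 apart, and the difference was 1.1 ± 0.25 (SE, adjusted p = 0.294 in limma).

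Rpl27 had -1.03, -0.96, -0.81 and 0.09 at 3 h and 0.59, 0.46 and 0.36 at 10 h. Rps15a had -0.54, -0.77, -0.63 and 0.24 at 3 h and 0.6, 0.76 and 0.56 at 10 h. Rpl34 had -0.99, -0.81, -0.56 and 0.15 at 3 h and 0.52, 0.49 and 0.49 at 10 h. In all 3 genes replicate 4 was the only 3 h array above 0, and it remained below every 10 h value. The differences were 1.15 ± 0.3, 1.07 ± 0.28 and 1.05 ± 0.28 (SE), each with an adjusted p of 0.325 in limma.

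Rps21 agreed over its 3 probes, with differences of 1.08 ± 0.3, 1.07 ± 0.35 and 0.68 ± 0.27 (SE). The probe with 1.07 turned to -0.32 when read as Cy5 over Cy3, while the others stayed positive at 0.74 and 0.04. At the other end of the list, Rps12, Rpl4 and Rpl27a differed by 0.02 to 0.04, with standard errors of 0.31 to 0.36. Members that did not overlap also included Rpl36a, Rps27, Rpl23, Rps28, Rpl31 and Rpl9, with differences of 0.85 to 1.34. The highest of these, Rpl36a, turned to -0.30 in the Cy5 over Cy3 reading.

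**Figure D3:**
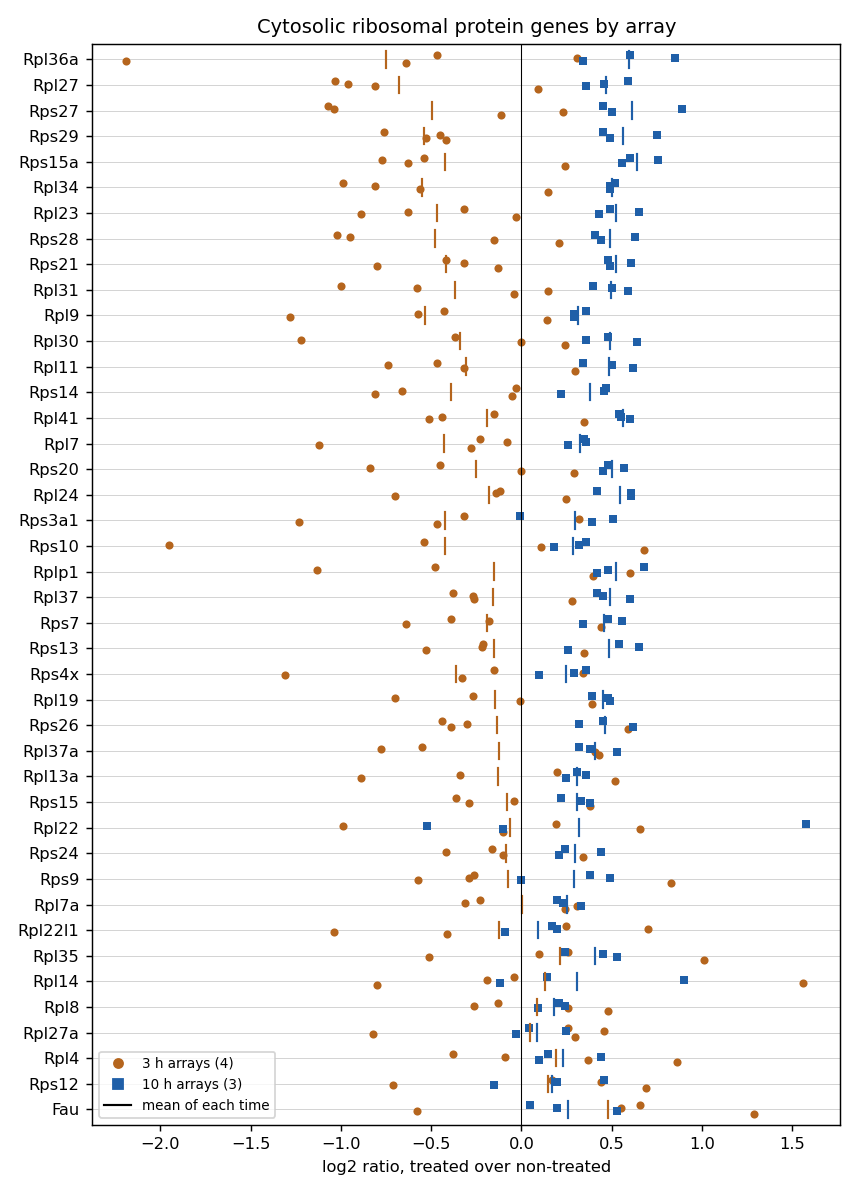
Log2 ratio on each array for the 42 cytosolic ribosomal protein genes (means over their probes), ordered by the difference between the times; circles are the 4 arrays at 3 h, squares the 3 arrays at 10 h, and vertical lines the mean of each time. From Rpl36a at the top, the squares lie to the right of the circles in 19 genes, and at the bottom, from Rpl8 to Fau, they fall within the spread of the circles.

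The letters around the annotated start of these genes are shown to set members that did not overlap beside members that did. Each window runs from 30 bases before to 20 bases after the start in RefSeq (GRCm38.p6), and capitals mark CTTTC on the gene's strand, a short form of the pyrimidine tract typical of ribosomal protein transcripts.
Rps15a, not overlapping, chr7:118116128-118116177, minus strand: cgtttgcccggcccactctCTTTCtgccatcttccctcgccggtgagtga
Rps27, not overlapping, chr3:90213629-90213678, minus strand: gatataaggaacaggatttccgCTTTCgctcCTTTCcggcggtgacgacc
Rpl27, not overlapping, chr11:101442215-101442264, plus strand: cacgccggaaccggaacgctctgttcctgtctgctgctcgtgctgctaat
Rpl23, not overlapping, chr11:97782420-97782469, minus strand: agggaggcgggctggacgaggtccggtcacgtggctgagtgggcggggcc
Fau, overlapping, chr19:6057917-6057966, plus strand: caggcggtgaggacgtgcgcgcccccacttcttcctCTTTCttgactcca
Rpl4, overlapping, chr9:64173357-64173406, plus strand: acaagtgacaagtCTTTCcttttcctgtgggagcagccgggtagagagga

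A promoter was found for 35 of the 42 genes. Within 20 bases of the start, 10 of the 35 (28.6%) held CTTTC on the gene's strand, against 6.44% of 27025 genes in the table. On the opposite strand the shares were 8.57% and 5.67%. The motif was present in 2 of 14 genes that did not overlap and in 8 of 21 that did, so its share was not higher among the members with the clearer difference. CCGGAAG, the core bound by ETS factors, was found on either strand of the 300-base promoter in 13 of 35 ribosomal protein genes (37.1%), against 9.93% of all genes in the table and 20.2% of the genes compared here. The third motif searched, AAGATGGC below, can share its AAG with CCGGAAG. A match is a description of these windows only.

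Transcripts of the respiratory chain and ATP synthase showed a like but smaller difference. Of 72 genes on the list, 62 were on the array and 37 were compared. In 30 of the 37 the mean was higher at 10 h, against 62% of all genes. In 14 (37.8%, against 8.17% of all genes) the times did not overlap in that direction. In 1 (2.7%, against 2.54%) they did not overlap in the other. The unadjusted p was under 0.05 in 12 higher genes and 1 lower gene, against 8.54% and 1.37% of all genes, and none passed after adjustment. The median was -0.21 at 3 h and 0.26 at 10 h, and the difference lay 0.36 above all genes. On every 10 h array the list lay above all genes, by 0.19, 0.24 and 0.285, and on every 3 h array below them, at -0.19, -0.07, -0.145 and -0.02.

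By complex, the counts were as follows. In complex I, the NADH dehydrogenase, 15 of 18 genes were higher at 10 h and the list lay 0.41 above all genes. In complex IV, cytochrome c oxidase, 5 of 5 were higher (0.48 above all genes), and in the ATP synthase 8 of 9 (0.27 above). In complex III, the cytochrome bc1 complex, 2 of 5 were higher and the median lay at -0.45 relative to all genes. These groups are small, and the difference between complexes was not tested.

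Within complex I, Ndufb3 had -0.46, -0.3, -1.64 and -0.82 at 3 h and 0.44, 0.5 and 0.22 at 10 h. Ndufa2 had -0.99, -1.17, -0.06 and 0.07 at 3 h and 0.62, 0.54 and 0.42 at 10 h. Ndufa13 had -0.77, -0.74, -0.07 and 0.1 at 3 h and 0.46, 0.65 and 0.6 at 10 h. For Ndufa2 and Ndufa13 the 3 h arrays split by dye, with the Cy5-treated arrays low and the Cy3-treated arrays near 0. Ndufb3 had its lowest values on the Cy3-treated arrays instead, and it was the one that turned, to -0.18, in the Cy5 over Cy3 reading. The differences were 1.19 ± 0.32, 1.07 ± 0.32 and 0.94 ± 0.28 (SE), with adjusted p of 0.325, 0.36 and 0.36 in limma.

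Ndufs3, a core iron-sulfur subunit of complex I, went the other way, from a mean of 0.77 ± 0.67 (SD, n = 4) to -0.23 at 10 h. It was singled out after its values were seen. In the ATP synthase, both Atp5j2 probes (0.86 ± 0.27 and 0.78 ± 0.27, SE) were higher at 10 h. Atp5mpl is not on the list and was named only because both its probes kept the times apart, with differences of 0.82 ± 0.25 and 1.26 ± 0.43 (SE). It is therefore no separate result for the list. In complex IV, Cox6c and Cox7b each differed by 0.91 with no overlap.

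The whole list was sensitive to the direction of the ratios. Read as Cy5 over Cy3, it lay only 0.03 above all genes, with 21 of 37 higher and 2 (5.41%) not overlapping, against 4.03% of all genes. It lay 0.22 above all genes within the Cy5-treated arrays and 0.33 within the Cy3-treated ones. Leaving out single arrays gave 14 to 18 non-overlapping genes (37.8% to 48.6%, against 10.1% to 16.9% of all genes), and the median lay 0.13 above all genes without 3 h replicate 3.

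A promoter was found for 29 of the 37 genes. AAGATGGC, the core bound by YY1, was present on either strand of the 300 bases in 8 (27.6%), against 3.19% of all genes in the table and 6.23% of the genes compared here. It was present in 4 of 12 genes that did not overlap in the higher direction and in 4 of 16 that did overlap.

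Mitochondrial ribosomal proteins, which build the separate ribosome of that organelle, leaned the same way. Of 33 compared genes 24 were higher at 10 h, against 62% of all genes. In this direction 6 (18.2%, against 8.17% of all genes) did not overlap, and 0 did not overlap in the lower direction. The list's own medians overlapped between the times, at -0.13 to 0.13 relative to all genes on the 3 h arrays and 0.07 to 0.17 on the 10 h arrays. The median difference lay 0.16 above all genes. Mrpl33 had -1.04, -0.43, -0.38 and 0.22 at 3 h and 0.77, 0.54 and 0.67 at 10 h, a difference of 1.07 ± 0.3 (SE, adjusted p = 0.325 in limma). Mrpl49 (0.76 ± 0.29) and Mrpl28 (0.88 ± 0.37) were the next by p, and Mrpl28 turned to -0.57 in the other reading. Read as Cy5 over Cy3 the list lay 0.07 above all genes.

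Other parts of the protein-making apparatus had median differences near or below that of all genes. Translation factors and tRNA synthetases, 30 genes, lay at -0.06 relative to all genes in the median difference. In 0 of them the times did not overlap, against 8.17% of all genes on the higher side and 2.54% on the lower. Ribosome biogenesis and RNA polymerase I genes, 21, lay at -0.21 relative to all genes, with 8 higher and 13 lower. Of them 1, Nop58 (4.76%, against 2.54% of all genes), did not overlap on the lower side. Splicing factors and hnRNPs, 31, lay at -0.001 relative to all genes. Among them Srsf11 was higher by 0.93 ± 0.34 and Hnrnpl lower by -0.71 ± 0.3 (SE), and both turned in the Cy5 over Cy3 reading, to -0.36 and 0.36. Proteasome genes, 20, lay 0.04 above all genes with 14 higher, and ubiquitin enzymes, 26, lay at -0.19 relative to all genes. Within the latter, Herc2, a giant ubiquitin ligase, had -2.71, -2.27, -1.46 and -1.56 at 3 h and 0.36, -0.02 and -0.73 at 10 h, and the deubiquitinase Usp8 was higher by 0.95 ± 0.36 (SE).

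Several lists sat above the median of all genes at 3 h and nearer to or below it at 10 h. After median centring, the unfolded protein response and ATF4 targets had the lowest median difference of these. Of 17 compared genes 6 were higher at 10 h and 11 lower, and the median difference lay at -0.41 relative to all genes. The list stood 0.5, 0.35, 0.38 and 0.62 above all genes on 3 h replicates 1 to 4, and 0.13, 0.02 and 0.03 above on the 10 h arrays. The arrays of the times did not overlap, although only 1 gene, Calr (5.88%, against 2.54% of all genes on the lower side), had non-overlapping values. Calr, a calcium-binding chaperone of the endoplasmic reticulum, had 0.41, 0.71, 0.32 and 0.76 at 3 h and 0.16, -0.01 and -0.19 at 10 h. Its difference was -0.56 ± 0.26 (SE, adjusted p = 0.491 in limma). Atf4, the transcription factor of the pathway, differed by -0.57 ± 0.32 (SE, adjusted p = 0.563). Dnajb11 and Ddit3, also among the 4 members with the smallest p, went the other way. They were higher by 1.25 ± 0.65 and 0.56 ± 0.35 (SE, adjusted p = 0.533 and 0.614 in limma). No member reached an unadjusted p under 0.05. In the Cy5 over Cy3 reading the list lay 0.07 above all genes, with Calr at 0.11, Atf4 at 0.30, and Dnajb11 and Ddit3 both at -0.13.

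Matrix genes were described in the same way. Of 28 collagen and matrix genes, 9 were higher at 10 h and 19 lower. On the higher side 2 did not overlap (7.14%, against 8.17% of all genes), and on the lower side 3 (10.7%, against 2.54%). The median difference lay at -0.27 relative to all genes. The 2 higher genes were Gpc4 and Sparcl1, described above, and the 3 lower ones, named after their values were seen, were Sparc, Thbs1 and Plod3. Sparc, a collagen-binding matricellular protein, had 0.42, 0.52, 0.54 and 1.16 at 3 h and 0.1, 0.01 and -0.16 at 10 h on its probe with the smaller p. The difference was -0.68 ± 0.27 (SE, adjusted p = 0.435 in limma), and -0.58 on its second probe. With Cy5 over Cy3 the first Sparc probe turned to 0.28, and Sparcl1 was at 0.17. Pcolce, an enhancer of procollagen processing, differed by -0.71 ± 0.27 (SE). Thbs1, or thrombospondin, and Plod3, a lysyl hydroxylase of collagen, differed by -0.5 ± 0.23 and -0.47 ± 0.23 as gene means, and by -0.01 and 0.10 in the other reading. Replicate 3 decided how the list stood at 3 h. It lay at -0.04 relative to all genes there and 0.32 to 0.42 above on the others, and without that array 11 of 28 genes (39.3%, against 8.66% of all genes) did not overlap on the lower side. In the other reading the list lay at -0.09 relative to all genes. There 0 genes did not overlap in either direction, against 4.03% of all genes above and 2.68% below.

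Matrix proteases and integrins, 17 genes, lay at -0.12 relative to all genes. Pxn, the focal adhesion adaptor paxillin, was lower by -0.87 ± 0.36 (SE) and turned to 0.57 in the other reading. The list lay 0.02 to 0.37 above all genes on the 3 h arrays and at -0.11 to -0.01 on the 10 h arrays.

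The cytoskeleton lists also had medians below that of all genes. Of 29 actin and SRF target genes 13 were higher and 16 lower, with a median at -0.19 relative to all genes. Pfn1 and Acta2, the smooth muscle actin, did not overlap on the lower side (6.9%, against 2.54% of all genes). On the higher side 1 gene, Tpm4, did not overlap (3.45%, against 8.17%). Acta2 differed by -0.53 ± 0.26 (SE, adjusted p = 0.507 in limma) and turned to 0.08 in the other reading. Tpm4, a tropomyosin, went the other way, with -1.95, -4.24, -0.85 and -1.15 at 3 h and 0.12, 0.09 and -0.12 at 10 h, a difference of 2.08 ± 0.59 (SE, adjusted p = 0.333). Tmsb4x, which binds actin monomers, was higher by 0.7 ± 0.28 (SE). Its nearest values of the 2 times were both 0.34 to 2 decimals, so it was not counted, although unrounded they did not overlap. The list turned to 0.06 above all genes in the Cy5 over Cy3 reading. Tubulins and microtubule proteins, 21 genes, lay at -0.17 relative to all genes. As means over their probes 2 genes (9.52%, against 2.54% of all genes) did not overlap on the lower side. These were Tubb6 and Pafah1b1, a regulator of dynein.

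Replication and division genes had medians below that of all genes, and no single gene stood apart on the lower side. In the G1/S and DNA replication list 7 of 23 genes were higher at 10 h and 16 lower, and the median difference lay at -0.29 relative to all genes. The list was above all genes on all 4 arrays at 3 h, by 0.05 to 0.23, and below on all 3 at 10 h, at -0.19 to -0.04. No gene in it had non-overlapping values (against 8.17% of all genes above and 2.54% below) or an unadjusted p under 0.05. Pold1, the catalytic subunit of DNA polymerase delta, differed by -0.64 ± 0.31 (SE, adjusted p = 0.501 in limma). Without 3 h replicate 4, 13 of the 23 were higher. The list's median lay at -0.05 relative to all genes in the Cy5 over Cy3 reading and at -0.08 among probes off the small ratios on 7 arrays. In the G2/M and mitosis list, 18 genes, the median lay at -0.28 relative to all genes but turned to 0.21 above in the other reading. Its member Cdc25c, a phosphatase that starts mitosis, was higher at 10 h by 0.92 ± 0.28 (SE).

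**Figure D4:**
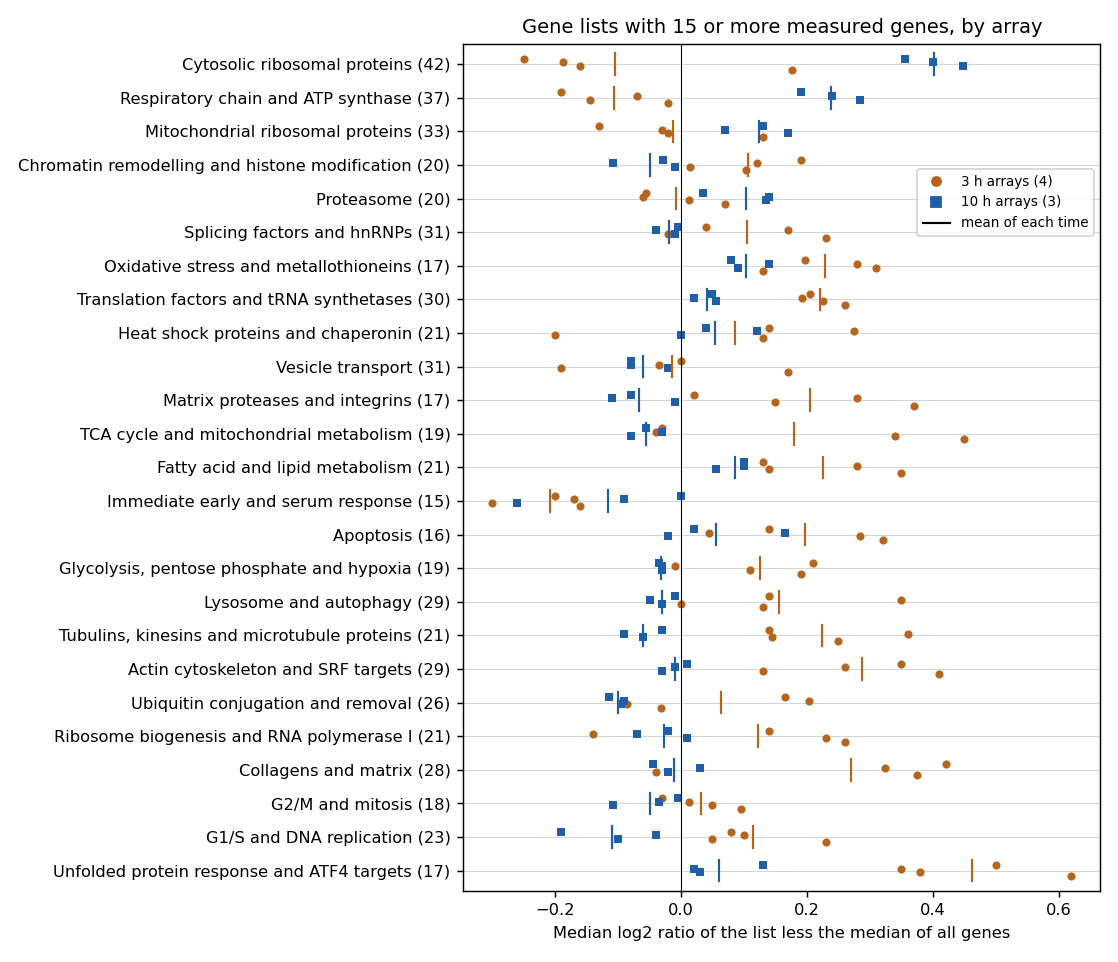
Median log2 ratio of each gene list less the median of all genes on the same array, for the 25 lists with at least 15 compared genes (number in brackets), ordered by the median over genes of the difference between the times; circles are the 4 arrays at 3 h, squares the 3 arrays at 10 h, and vertical lines their means. The squares lie to the right of the circles for the ribosomal proteins at the top (0.36 to 0.45 against -0.25 to 0.18), and to the left for the unfolded protein response at the bottom (0.02 to 0.13 against 0.35 to 0.62).

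Metabolic lists contained genes in both directions. Of 19 glycolysis, pentose phosphate and hypoxia genes, 2 (10.5%, against 8.17% of all genes) did not overlap on the higher side and 3 (15.8%, against 2.54%) on the lower side. The lower ones, named after their values were seen, were the glycolytic enzymes Aldoa, Gapdh and Hk1, with gene-mean differences of -0.81 ± 0.26, -0.65 ± 0.25 and -0.48 ± 0.25 (SE). In the other reading they were at -0.07, -0.06 and 0.16. The higher ones were the lactate exporter Slc16a3 (1.54 ± 0.48) and P4ha2, a prolyl hydroxylase of collagen (0.72 ± 0.24), at 0.67 and 0.004 in the other reading. Pdha1, a subunit of pyruvate dehydrogenase, was higher by 0.9 ± 0.35 (SE). Lysosome genes, 29, lay at -0.15 relative to all genes, with Gaa, the acid alpha-glucosidase, lower by -0.7 ± 0.28 (SE). Neu1, also among the 4 members with the smallest p, was higher by 1.31 ± 0.57 (SE) on one probe and 1.19 on its second. The first Neu1 probe turned to -0.44 in the other reading.

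Sterol synthesis genes stood above all genes at both times, on every array except 3 h replicate 2. The 11 compared genes lay 0.38 above all genes at 10 h (SD 0.14, n = 3) and 0.37 above at 3 h (SD 0.27, n = 4). Hmgcs1, which makes the HMG-CoA that feeds the pathway, had 0.87, 0.82, 1.37 and 1.78 at 3 h and 0.52, 0.75 and 0.74 at 10 h, and its difference of -0.54 ± 0.29 had an adjusted p of 0.536 in limma. The other reading turned it to 0.54. Sc5d and Tm7sf2, later enzymes of the pathway, were higher at 10 h by 0.69 ± 0.29 and 1.09 ± 0.4 (SE), and by 0.32 and 0.045 in the other reading.

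Signalling genes were represented by few compared members. In the immediate early and serum response list, 15 genes, the median lay at -0.14 relative to all genes. In it 2 genes (13.3%, against 8.17% of all genes), Zfp36 and Zfp36l1, did not overlap on the higher side. Zfp36, which marks unstable transcripts for decay, differed by 1.07 ± 0.41 (SE, adjusted p = 0.423 in limma). Egfr, the receptor of epidermal growth factor, had -1.36, -1.12, -1 and -0.74 at 3 h and 0.21, 0.23 and -0.05 at 10 h on one probe. The difference was 1.18 ± 0.26 (SE, adjusted p = 0.291), and 1.03 on the second probe. Map2k1, a kinase downstream of growth factor receptors, had -0.54, -1.35, -1 and -0.83 at 3 h and 0.04, 0.06 and 0.38 at 10 h, a difference of 1.09 ± 0.28 (SE, adjusted p = 0.325). Map2k1 turned to -0.08 and Zfp36 to -0.39 in the Cy5 over Cy3 reading, while Egfr stayed positive at 0.35.

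Growth arrest and cell death genes gave a mixed picture. Apaf1, the scaffold of the apoptosome, had -1.28, -1.17, -1.61 and -0.45 at 3 h and 0.29, 0.26 and 0.51 at 10 h. Its difference was 1.48 ± 0.29 (SE, adjusted p = 0.238 in limma over all probes), and 0.11 in the other reading. Gadd45a, a growth arrest gene, was higher at 10 h by 0.7 ± 0.29 (SE), and Cdkn1a, the p21 inhibitor of cyclin kinases, lower by -0.63 ± 0.3 (SE), each without overlap. Glul, glutamine synthetase, had -1.03, -0.8, -1.34 and -0.95 at 3 h and 0.12, -0.1 and -0.21 at 10 h, a difference of 0.97 ± 0.26 (SE, adjusted p = 0.325), which turned to -0.04 in the other reading. Arid1b, a subunit of the SWI/SNF remodeller, differed by 2.86 ± 0.82 (SE), with 10 h values from -0.32 to 1.91. It turned to -0.55 in the other reading, and its second probe differed by -1.25.

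Of 7 compared genes of the clock list, Dbp among them, 5 were higher at 10 h, against 62% of all genes. Tef, a relative of Dbp, differed by 0.63 ± 0.32, Csnk1d, a clock kinase, by 0.76 ± 0.51, and the nuclear receptor Rora by 0.49 ± 0.41 (SE), with adjusted p of 0.516, 0.638 and 0.704 in limma. In the ion channel list 11 of 14 genes were higher at 10 h, against 62% of all genes, and 1 (7.14%, against 8.17%) did not overlap. Its median lay 0.14 above all genes and turned to -0.28 in the other reading.

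Markers were read as ratios, so they say nothing about which cells were present. Of 19 fibroblast markers on the array 14 were compared, 5 higher and 9 lower at 10 h, and their median difference lay at -0.27 relative to all genes. S100a6 and S100a4, small calcium-binding proteins, were higher at 10 h by 0.88 ± 0.24 and 0.74 ± 0.27 (SE), and by 0.33 and 0.29 in the other reading. These 2 genes did not overlap between the times (14.3%, against 8.17% of all genes). Sparc did not overlap on the lower side (7.14%, against 2.54% of all genes), with the turned value given above. In bulk RNA, fewer cells of a type and less RNA per cell cannot be told apart. Of 25 leukocyte markers on the array 7 were compared, with 5 higher at 10 h, against 62% of all genes. Gimap3 differed by 1.86 ± 0.41 and Fcgr3 by 1.23 ± 0.43 (SE), both from means below -1 at 3 h. The list lay at -0.83 to -0.325 relative to all genes at 3 h and at -0.24 to 0.05 at 10 h. Muscle markers (7 compared), neuron and glia markers (4), adipocyte markers (2), liver and erythroid markers (2) and epithelial markers (1) had at most 1 non-overlapping gene each. Over all genes the shares were 8.17% above and 2.54% below, so lists this small show little either way. The only epithelial gene compared, Krt14, did not overlap on the lower side. The part of the marker genes in the differences above was not tested.

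The 12 higher genes named by p had 3 h means of -0.78 to -1.86 and 10 h means of -0.075 to 0.82. In size, the 10 h response of these genes was therefore smaller than the 3 h response, most narrowly for Cchcr1, with means of -0.88 and 0.82. The 12 lower genes had 3 h means of 0.56 to 1.68 and 10 h means of -0.91 to -0.01. For most genes named here the ratio was away from 0 at 3 h and nearer to 0 at 10 h. These genes were picked by the p of the difference, and the standard deviation at 3 h was 2.36 times that at 10 h. A large difference can then come mainly from extreme 3 h values, so this shape is not a separate result about the response. The ribosomal and respiratory lists lay above all genes at 10 h.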

How the data were processed

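RNA of treated and non-treated NIH3T3 fibroblasts was compared on 7 two-colour arrays. Per the labels' protocols, RNA was purified on silica columns and labelled indirectly with Cy3 and Cy5. The same protocols speak of organs and a reference pool from control animals, which differs from the sample names. How the images were scanned, corrected for background and normalized is not stated there. The authors deposited log ratios, whose base was taken as log2 from the values themselves.

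Repeated extreme values over 15 in size were treated as missing, and each array was centred on the median of all its measured values. Probes with a value on all 7 arrays were then kept. The number of arrays limits the precision. The difference between the times was tested with limma 3.58.1 (R 4.3.3; lmFit, arrayWeights grouped by time, eBayes), two-sided, with Benjamini-Hochberg adjustment over 6369 probes and a threshold of 0.05. The size of the estimates was checked on simulated data with independent normal noise, without dye effects or small ratios. Whether the p-values hold for arrays with those features was not checked. Of 20355 probes, 14030 had 1 symbol in the platform annotation, 5 several and 6320 none. Genes in lists and shares of genes are means over their probes, while most values of named genes are those of 1 probe. Promoters came from RefSeq (GRCm38.p6).

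Named were the 12 genes per direction with the smallest p, up to 4 list members by p, up to 8 genes per direction with several probes that all kept the times apart, up to 8 probes per direction of opposite sign with the widest gap, and probes of these genes that disagree. The gene lists and this comparison were chosen with earlier results of these data known. Alternatives covered direction, dye, spread, scaling, filters, single arrays and replicate blocks.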

Additional observations from a re-analysis of the deposited data

Results flagged for a closer look

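In 6 of 136 groups of 4 arrays looked at (4.41%), 1 array at 3 h stood apart from the other three by Dixon's criterion, which chance meets in about 1 group in 20. Replicate 4 was the array in 5 of these probes, with log2 ratios of -2.94 for Brwd1, 1.14 for Il7r, 2.58 for Smim7, 0.95 for Dap and 1.16 for Sparc. Replicate 1 was the array for Wdr60, at 2.46.

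The response had opposite signs at the times on all arrays for 183 probes that were below 0 at 3 h and above 0 at 10 h. For 41 probes it was above 0 at 3 h and below 0 at 10 h. The difference was not tested by this count, and limma called none of the 6369 probes.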

How the results depend on the processing

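In these 24 settings 0 probes were called lower at 10 h (at an unadjusted p under 0.05 there were 91 as reported and 345 after quantile normalization). The 2 lower probes described above came from the restricted fit with 1 array left out. Probes called higher at 10 h numbered 21 and 7 among probes off the small ratios on 7 and on 5 arrays, 7 with a separate spread per probe and time, and 3 with a weight per array. In the other 20 settings, single arrays left out included, 0 were called. With the replicate block 0 were called (smallest adjusted p 0.45), with 551 higher and 123 lower at an unadjusted p under 0.05. Replicates 1 to 3 without the block, a setting chosen after seeing the data, gave 645 and 75. Same-numbered arrays correlated at 0.028, 0.031 and 0.091 in their deviations, each at or under 0.1, so the numbers were not taken to pair them. The 10 h replicates 1 and 3 correlated best with the 3 h array of their own number, and replicate 2 with 3 h replicate 1. Probes not overlapping on the higher side were 3.77% read as Cy5 over Cy3 and 11.5% to 18% with 1 array left out. On the lower side they were 6.2% after quantile normalization, 4.89% with probes on 3 and 2 arrays, and 3.63% to 8.35% with 1 array left out. Probes of opposite sign, higher at 10 h, were 0.911% read as Cy5 over Cy3, 4.42% off the small ratios on 7 arrays and 3.86% to 6.58% with 1 array left out. Lower at 10 h, they were 1.85% after quantile normalization, 1.44% with probes on 3 and 2 arrays, 1.09% off the small ratios on 7 arrays and 1.04% to 2.18% with 1 array left out. Fewer arrays overlap less by construction. For the other settings the cause was not tested.

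Of 2320 values for 100 probes over 24 settings, 2281 kept their direction. Within the Cy3-treated arrays 2 reversed, Tef (-0.01) and Rora (-0.202), and the other 37 reversed values came from the Cy5 over Cy3 reading. There, differences turned negative for Cchcr1 (-0.007), C2cd3 (-0.068), Brwd1 (-0.402), Rps21 (-0.322), Zfp36 (-0.392), Map2k1 (-0.076), Arid1b (-0.552), Hdac5 (-1.203), Ifi35 (-0.542), Tnfrsf1b (-0.745), Ndufb3 (-0.183), Mrpl28 (-0.566), Srsf11 (-0.356), Cacna1a (-0.397), Glul (-0.041) and Slc30a1 (-0.046). They turned positive for Il7r (0.065), Smim7 (0.46), Pemt (0.085), Dlk1 (0.249 and 0.244), Chn2 (0.324), Fam83g (0.13), Pfn1 (0.142), Tubb6 (0.014), Dap (0.225 and 0.255), P2ry2 (0.56), Hnrnpl (0.364), Sparc (0.28), Pxn (0.566), Casq2 (0.377), Calr (0.108), Atf4 (0.297), Hmgcs1 (0.54), Acta2 (0.08) and Pafah1b1 (0.015).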
